A study of Mus musculus with 24 samples.

Results

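Spi1, Cebpa, Cebpb, Cebpd, Cebpe, Irf8, Irf4, Gfi1 and Myb, 9 genes for transcription factors of myeloid blood cells, were read in DA1-3B Bcr-ABL+ cells, a mouse leukaemia line of strain C3H eOuJ that is transformed by the BCR-ABL fusion kinase. They were found by name among the probes that are not controls, Spi1 under its older symbol Sfpi1, and are 9 of 30342 distinct names on the array (a gene symbol, or the probe's identifier where a probe has no symbol). Each was read by 1 probe, printed as 1 spot. The cells had been transfected with plasmids for p65/RelA, a DNA-binding subunit of NF-kB, and total RNA was hybridised in 1 colour to 24 Agilent arrays.

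There were 6 groups of 4 arrays each. WT cells received whole p65, and D361E cells a form of it that cannot be cleaved. The p1-361 cells received the fragment from the N terminus, the p363-549 cells the one from the C terminus, and the p1-361+p363-549 cells, the both-fragment group, received the pair. VOID cells received the plasmid without insert. By the treatment protocol, p363-549 begins 1 residue before the number in its name. All 6 groups carried BCR-ABL, and all were 1 cell line. The labels used here give neither the promoter of the plasmids nor the share of cells that took them up. Nor do they say how many cultures stood behind a group's 4 samples, and the p-values therefore weigh differences only against the scatter among the samples at hand, which may be technical.

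Myeloid cells are built by a small set of factors that act together on shared enhancers. PU.1, the product of Spi1, is an ETS-family factor needed for monocytes and granulocytes, and it works alongside the C/EBP family of basic leucine-zipper proteins, of which C/EBP-alpha starts granulocyte production, C/EBP-epsilon completes it, and C/EBP-beta and C/EBP-delta answer inflammatory and growth signals. Irf8 and Irf4 are interferon regulatory factors that bind with PU.1 and favour monocytes, macrophages and dendritic cells, Gfi1 is a repressor that favours granulocytes over monocytes, and Myb keeps immature progenitors dividing. C/EBP-beta and PU.1 are also known to meet NF-kB on the control regions of inflammatory genes.

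The probe of Spi1 is the only 1 of the 9 that crosses an intron, spanning 13788 bases from chr2:90939665-90953452 on the forward strand of build mm9 and starting at base 275 of its transcript. It is shown because it can read only spliced transcript in full.
Spi1 probe: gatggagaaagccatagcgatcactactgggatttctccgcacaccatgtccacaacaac
The other 8 probes are contiguous stretches of 60 bases. Those of the C/EBP genes lie at chr7:35906517-35906576 (Cebpa, forward strand), chr2:167515828-167515887 (Cebpb, forward), chr16:15888459-15888518 (Cebpd, forward) and chr14:55329200-55329259 (Cebpe, reverse). Those of the others lie at chr8:123280324-123280383 (Irf8, forward), chr13:30858532-30858591 (Irf4, forward), chr5:108145719-108145778 (Gfi1, reverse) and chr10:20844736-20844795 (Myb, reverse), all in mm9.

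The promoter of Cebpb is shown because Cebpb was the member that passed the test of any difference among the groups. It is the 300 bases from 250 before to 50 after the start that RefSeq gives on GRCm38.p6, chr2:167688665-167688964, forward strand, with capitals on TGACG, the core letters of a cyclic AMP response element, on either strand, and on TATAAA.
Cebpb promoter: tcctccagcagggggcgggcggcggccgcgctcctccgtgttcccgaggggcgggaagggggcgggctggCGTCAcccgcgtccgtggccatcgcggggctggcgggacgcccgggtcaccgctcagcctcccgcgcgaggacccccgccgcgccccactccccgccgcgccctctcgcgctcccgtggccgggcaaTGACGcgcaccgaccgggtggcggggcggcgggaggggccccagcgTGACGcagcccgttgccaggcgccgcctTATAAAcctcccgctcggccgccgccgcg
TGACG occurs 3 times, at bases 71 (reverse strand), 198 and 244 of the window, and TATAAA is at base 272, after the RefSeq start. Of 32851 promoters of the same length, 20.8% held TGACG and 13.6% held TATAAA. The table held 8 promoters for 6 of the members, Cebpa, Cebpb, Irf8, Irf4, Gfi1 and Myb. Searched on both strands, TATAAA was also in the promoters of Cebpa and Irf4 and in 1 of 2 of Irf8. In these it began before the start, at bases 221, 225 and 220 of the window. The PU.1 type motif GAGGAA (28.3% of all promoters) was in the promoter of Irf4, and the C/EBP type motif TTGCNNAA (10.8%) in 1 of 2 promoters of Gfi1. No motif overlapped another in the Cebpb window, and these matches describe letters only.

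The level of a gene is the log2 of its processed signal minus the log2 of the 75th percentile of the signal on the same array, so 0 is the brightness of that percentile, and levels are compared for a gene between groups, never between genes. Spi1, Cebpb, Cebpd, Cebpe and Myb were well above background on 24 of 24 arrays and were tested with limma among 15058 genes. The other 4 did not reach that mark on all 4 arrays of any group and were not tested. Cebpa and Gfi1 were well above background on 0 of 24 arrays, Irf4 on 1 and Irf8 on 10. Of 8 listed blood cell markers of the line, at least 7 were above background on every array, while 7 of 9 fibroblast and epithelial markers were above background on none. RNA was read from whole cultures, so fewer cells that use a gene and less RNA of it per cell cannot be told apart.

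**Figure D1:**
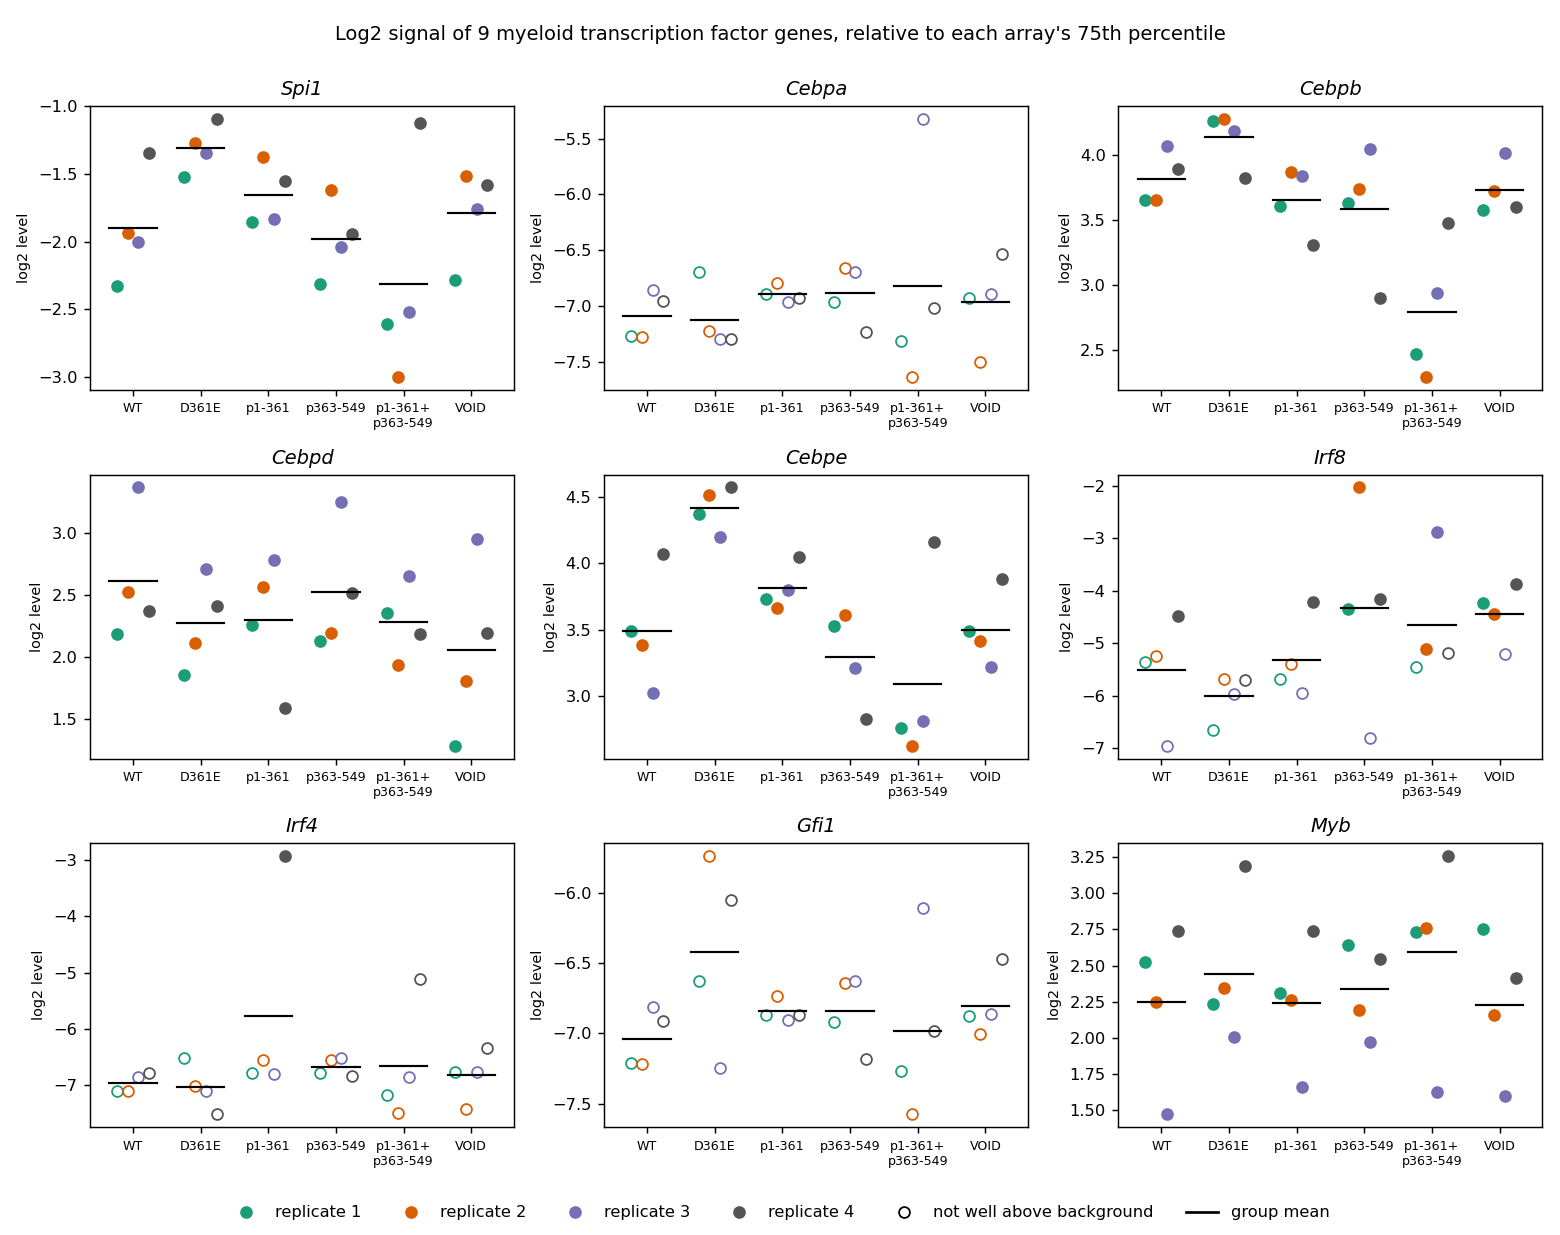
Log2 level of the 9 genes (y axis, relative to the 75th percentile of each array) in the 6 transfection groups (x axis), with 1 point per array, colours for replicates 1 to 4, open points where the probe was not well above background, and a line at the group mean. Cebpb is lowest in the both-fragment group, Cebpe is highest in D361E, and Cebpa and Gfi1 have open points throughout.

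Of the 24 arrays, 21 were closest in expression to their own group, when each was compared with the group means from the other 3 sets of consecutive sample numbers over 200 genes that left out the 9 members. The other 3 were the fragment arrays numbered 4. For p1-361 replicate 4 the Pearson r was 0.14 with the arrays of its label and 0.78 with p363-549. For p363-549 replicate 4 it was -0.55 with its label and 0.97 with both fragments, and for the both-fragment replicate 4 it was -0.09 with its label and 0.71 with p1-361. These correlations are across genes, which are not independent replicates, and the groups are kept as labelled. Part of the results that rest on the fragment groups, mainly those of the members, is also given without these 3 arrays. Values of single genes other than the members are with all arrays unless stated. Since the 3 arrays were chosen for their values, the spread without them is smaller by choice.

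Cebpb, the factor of inflammatory responses and emergency granulocyte production, had its lowest group mean in cells given both fragments. Its level was 2.46, 2.29, 2.94 and 3.48 in the both-fragment arrays, against 3.58, 3.72, 4.02 and 3.60 in the VOID arrays. It was 3.65, 3.65, 4.07 and 3.90 in WT and 4.27, 4.28, 4.19 and 3.83 in D361E. The single fragments gave 3.61, 3.87, 3.84 and 3.31 in p1-361 and 3.64, 3.74, 4.05 and 2.90 in p363-549. Every both-fragment array lay below every VOID, WT and D361E array, while the highest of them, replicate 4, lay above the lowest array of each single-fragment group.

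In limma's moderated F test of any difference among the 6 groups, Cebpb passed with an adjusted p of 0.0243, as 1 of the 5 members tested, where 2.84% of all genes passed. Against VOID the both-fragment group was lower by -0.94 ± 0.24 (log2, SE, n = 4 arrays each), a 1.92-fold difference with a 95% interval of -1.43 to -0.44 (limma adjusted p = 0.0258). Cebpb was the 1 member called in that comparison, where 4.38% of genes were called. Its lack of overlap between the groups' arrays was shared by 9.93% of genes. Against WT it was lower by -1.03 ± 0.24 with an adjusted p of 0.039 (limma, 1 member called, 1.04% of genes called, 7.49% without overlap), and against D361E by -1.35 ± 0.24, or 2.55-fold, with an adjusted p of 0.0025 (limma, 2 members called, 3.92% of genes called, 8.21% without overlap).

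Without the 3 fragment arrays the Cebpb difference between both fragments and VOID was -1.17 (limma adjusted p = 0.000168, 9.54% of genes called) and from WT -1.26 (0.000124, 5.55% called). It was also lower than in p1-361 by -1.21 (adjusted p = 0.000395; 11.5% of genes called) and than in p363-549 by -1.25 (adjusted p = 0.000225; 15.1% of genes called). With all 24 arrays these last comparisons had limma adjusted p-values of 0.106 and 0.141, and 0% of all genes were called in either. At an unadjusted p under 0.05 there were 3 and 1 members, with no share of all genes at that cutoff to set them against. Within the sets of sample numbers, each of which holds 1 array of every group, both fragments minus VOID was -1.11, -1.43, -1.08 and -0.12, the last being the set with the both-fragment replicate 4. Within the slides that held both groups it was -0.66 and -1.26. The both-fragment arrays were among the brighter ones, with a 75th percentile signal of 1065, 1214, 847 and 1020 against 764, 924, 666 and 775 in VOID. With that brightness as a covariate the Cebpb difference was -0.62 with a limma adjusted p of 0.275. With the sets as a fixed block and all 24 arrays the adjusted p was 0.012 against VOID (16% of genes called), 0.0205 against WT (7.3%), 0.0344 against p1-361 (15.7%) and 0.0345 against p363-549 (14.2%). The call against VOID ended without the both-fragment replicate 1 (limma adjusted p = 0.113) or 2 (0.129), without VOID replicate 2 (0.0597) or 3 (0.0876), and without sample numbers 13 to 18 (0.125). The call against WT ended without any 1 of 7 of the 8 arrays, the both-fragment replicate 4 being the exception (adjusted p up to 0.214), and in 6 of 19 other settings.

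The single constructs gave Cebpb levels near those of VOID. Against VOID the difference was 0.09 in WT, 0.41 in D361E, -0.07 in p1-361 and -0.15 in p363-549, with a SE of 0.24 for each and limma adjusted p-values of 0.953 to 1. D361E was above VOID in 4 of 4 sets of sample numbers, by 0.17 to 0.69, and its 95% interval was -0.09 to 0.91. The share of all genes with the same sign in 4 of 4 sets was not taken. Such agreement, here and for the other members, therefore only describes. Taken in order of the group means, Cebpb was highest in D361E (4.14), then WT (3.82), VOID (3.73), p1-361 (3.66), p363-549 (3.58) and both fragments (2.79), and none of the neighbours in this order differed in limma (adjusted p of 0.141 to 1).

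Cebpe, which drives the last steps of granulocyte maturation and their secondary granules, was highest in D361E. Its level was 4.37, 4.51, 4.19 and 4.57 in D361E, against 3.49, 3.41, 3.22 and 3.88 in VOID and 3.49, 3.38, 3.02 and 4.07 in WT. Every D361E array was above every array of WT, of VOID and of the other 3 groups. The fragment groups had 3.73, 3.67, 3.80 and 4.05 in p1-361, 3.52, 3.61, 3.21 and 2.83 in p363-549, and 2.76, 2.63, 2.81 and 4.16 in both fragments, where replicate 4 stood well above the other 3.

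D361E was above VOID by 0.91 ± 0.27 (log2, SE, n = 4 arrays each; 95% interval 0.34 to 1.48) and above WT by 0.92 ± 0.27, and neither passed, with limma adjusted p-values of 0.204 and 0.578. The groups' arrays did not overlap in either comparison, as for 4.77% and 3.59% of all genes. Within the 4 sets the difference from VOID was 0.69 to 1.10 and that from WT 0.50 to 1.18, and within slides it was 0.49, 0.78 and 1.29 from VOID and 0.44 and 1.08 from WT. Without the 3 fragment arrays, which belong to neither comparison but enter the shared spread, the sizes are the same and both passed (limma adjusted p = 0.0102 where 1.62% of genes were called, and 0.023 where 0.545% were called).

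In both fragments Cebpe was lower than in D361E by -1.32 ± 0.27, a 2.5-fold difference (limma adjusted p = 0.00807), the second member called in that comparison. The p363-549 group differed from D361E by -1.12 ± 0.27 (adjusted p = 0.0734, 0.0203 with the sets as a fixed block, where 1.95% of genes were called, and 0.0155 without the 3 arrays, where 1.26% were called; 0.571% of genes called, 4.3% without overlap) and p1-361 by -0.60 ± 0.27 (adjusted p = 1; 0.173% called, 3.58% without overlap). From p1-361 both fragments differed by -0.72 (adjusted p = 0.185, and 0.0486 with the sets as a fixed block, where 15.7% of genes were called). Against VOID both fragments differed by -0.41 ± 0.27 with all arrays (limma adjusted p = 0.427). Without the 3 fragment arrays the difference was -0.77 (limma adjusted p = 0.0176, 9.54% of genes called). The p1-361 group was above VOID in 4 of 4 sets, by 0.17 to 0.58. The F test for Cebpe had an adjusted p of 0.0538 with all arrays, 0.0159 with the sets as a fixed block (11.1% of genes passed) and 0.00028 without the 3 arrays (9.86% passed). The order of the means was D361E (4.41), p1-361 (3.81), VOID (3.50), WT (3.49), p363-549 (3.29) and both fragments (3.09), with no difference between neighbours in limma (adjusted p of 0.697 to 1).

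Spi1, the gene of PU.1, followed the same order at its ends, but its groups overlapped more. Its level was -1.52, -1.27, -1.35 and -1.09 in D361E and -2.60, -2.998, -2.52 and -1.12 in both fragments, against -2.28, -1.51, -1.76 and -1.58 in VOID. It was -2.32, -1.94, -2.0 and -1.34 in WT, -1.85, -1.38, -1.83 and -1.55 in p1-361, and -2.31, -1.62, -2.03 and -1.94 in p363-549. The both-fragment replicates 1 to 3 were lower than all other arrays, while replicate 4 was higher than all but 1, which was a D361E array.

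With all arrays and no block, Spi1 did not pass the F test (limma adjusted p = 0.379) or any comparison. Both fragments differed from VOID by -0.53 ± 0.29 (95% interval -1.14 to 0.08, adjusted p = 0.342) and from D361E by -1.0 ± 0.29 (adjusted p = 0.0598). With the sets as a fixed block the difference from D361E passed (limma adjusted p = 0.00957, 21.5% of genes called). Without the 3 fragment arrays the differences were -0.92 from VOID (limma adjusted p = 0.0156; 9.54% of genes called), -1.40 from D361E (0.000534; 10.1%) and -1.02 from p1-361 (0.0144; 11.5%). Those from WT (-0.81, 0.0516) and from p363-549 (-0.72, 0.0599) did not pass, and the F test gave 0.0109 (9.86% of genes passed). The single arrays of set 4 showed the reverse sign, with Spi1 0.46 higher in both fragments than in VOID, against -0.32, -1.48 and -0.76 in the other sets. D361E was above VOID in 4 of 4 sets, by 0.25 to 0.76, with a difference of 0.48 ± 0.29 that did not pass (adjusted p = 0.987). The p363-549 group was below VOID in 4 of 4 sets, with differences of -0.37 to -0.03. No 2 neighbours in the order of means differed (limma adjusted p of 0.545 to 1).

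**Figure D2:**
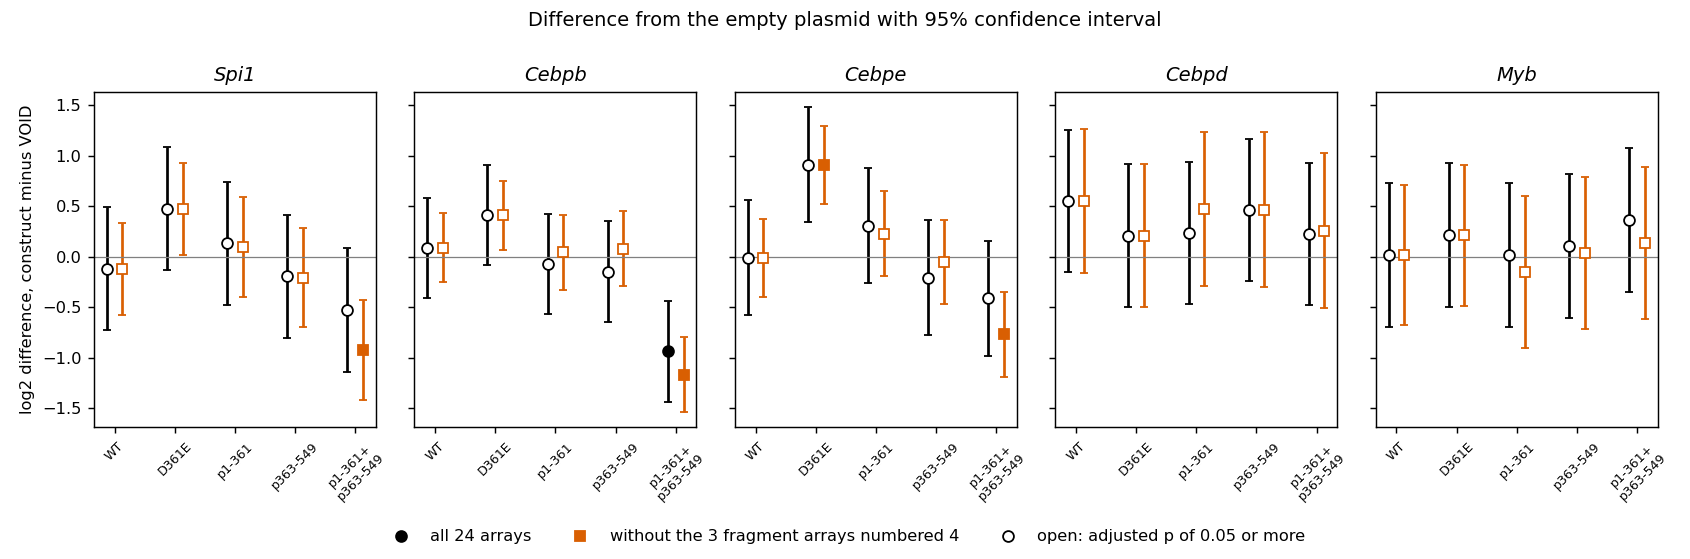
Log2 difference of each construct from VOID (y axis) for the 5 tested genes, with 95% confidence intervals, for all 24 arrays (circles) and without the 3 fragment arrays numbered 4 (squares), filled where the adjusted p was under 0.05. With all arrays the only filled point is Cebpb in both fragments, and without the 3 arrays those of Spi1, Cebpb and Cebpe in both fragments and Cebpe in D361E are filled.

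Cebpd, the C/EBP factor switched on early in inflammation and growth arrest, differed more between sets of sample numbers than between groups. Its level was 2.18, 2.52, 3.37 and 2.37 in WT, 1.86, 2.11, 2.71 and 2.41 in D361E, and 2.26, 2.56, 2.78 and 1.59 in p1-361. It was 2.13, 2.19, 3.25 and 2.52 in p363-549 and 2.36, 1.94, 2.66 and 2.19 in both fragments, against 1.28, 1.81, 2.95 and 2.20 in VOID. In each group replicate 3 was the highest array, and the groups overlapped throughout.

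The largest difference of Cebpd from VOID was 0.55 ± 0.34 in WT (95% interval -0.15 to 1.26, limma adjusted p = 1), and the F test gave an adjusted p of 0.914. With the sets as a fixed block the interval was 0.11 to 0.99 (limma adjusted p = 0.247), and the F test gave 0.275. VOID had the lowest mean (2.06) and WT the highest (2.61), and WT was above VOID in 4 of 4 sets, by 0.18 to 0.90. The p363-549 group was also above VOID in 4 of 4 sets, by 0.30 to 0.85. No neighbours in the order of means differed (adjusted p of 0.985 to 1).

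Myb, the progenitor factor, also overlapped between all groups. It was 2.52, 2.25, 1.47 and 2.74 in WT, 2.23, 2.35, 2.01 and 3.18 in D361E, and 2.31, 2.26, 1.66 and 2.74 in p1-361. It was 2.64, 2.19, 1.98 and 2.54 in p363-549 and 2.73, 2.76, 1.63 and 3.25 in both fragments, against 2.75, 2.16, 1.60 and 2.41 in VOID. Replicate 3 was the lowest array of every group. The largest difference from VOID was 0.36 ± 0.34 in both fragments (95% interval -0.35 to 1.07, limma adjusted p = 0.589), the F test gave 0.984, and no neighbours in the order of means differed (adjusted p of 0.824 to 1). With the sets as a fixed block the interval was 0.009 to 0.71 (limma adjusted p = 0.138), and the F test gave 0.361.

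Replicate 3 of every group belongs to sample numbers 13 to 18. Cebpd was 2.66 to 3.37 on these 6 arrays (median 2.87), above all of the other 18, which ran from 1.28 to 2.56. Myb was 1.47 to 2.01 (median 1.64), below all of the other 18, which ran from 2.16 to 3.25. Of all genes, 8.81% set these 6 arrays apart in this way, against 0.113%, 0.00664% and 0.279% for the other 3 sets. The labels do not call the sets batches, and each set holds all 6 groups and spans all 6 slides. The 75th percentile signal ran from 636 to 899 in this set and from 668 to 1214 over the others, and what else the samples share was not tested.

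**Figure D3:**
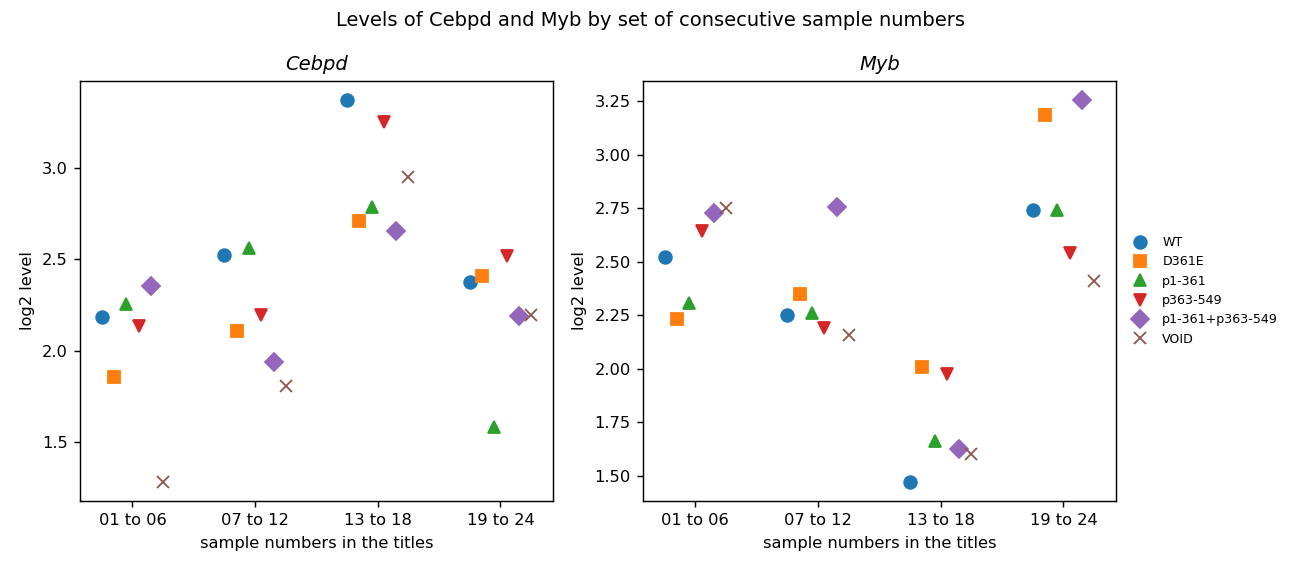
Log2 level of Cebpd and Myb (y axis) by set of 6 consecutive sample numbers (x axis), with 1 point per array and 1 symbol per group. In the set 13 to 18 all 6 Cebpd points lie at 2.66 or above and all 6 Myb points at 2.01 or below, apart from the other 18 arrays.

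Irf8, the monocyte and dendritic cell factor, was near background. Its level was -5.36, -5.24, -6.95 and -4.48 in WT, with replicate 4 alone above background, and -6.64, -5.68, -5.97 and -5.70 in D361E, with none. It was -5.68, -5.40, -5.94 and -4.21 in p1-361 (1 above background), -4.34, -2.03, -6.80 and -4.16 in p363-549 (3 above) and -5.45, -5.11, -2.89 and -5.19 in both fragments (2 above), against -4.23, -4.44, -5.21 and -3.86 in VOID (3 above). D361E was thus the only group with no array above background. With D361E taken at the lowest signal that counted as above background, mean Irf8 there was 1.68-fold below VOID and 1.81-fold below p363-549. In each of VOID and p363-549, 3 of 4 arrays were above background, and the mean includes the array that was not. These values are therefore not strict bounds, the gene was not in the fit, and they have no test. In p363-549, replicate 2, at -2.03, raised the mean, while replicate 3, at -6.80, lay below every D361E array.

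Irf4, which acts in dendritic cells, alternatively activated macrophages and lymphocytes, was above background on 1 array, p1-361 replicate 4, at -2.93. The other 23 arrays lay between -7.52 and -5.11. Gfi1 lay between -7.58 and -5.74 and Cebpa between -7.64 and -5.32 on all arrays, without a level well above background. No fold is given for these 3 genes.

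Over the comparisons as a whole, limma called 0 of the 5 tested members against VOID in WT (0.485% of genes called), D361E (0.657%), p1-361 (0.691%) and p363-549 (0.591%). It also called 0 in D361E (0.0797%), p1-361 (0.126%) and p363-549 (0.126%) against WT. At an unadjusted p under 0.05 these counts were 0, 1, 0 and 0 against VOID and 1, 0 and 0 against WT, the 1 being Cebpe in D361E each time. For this unadjusted cutoff, here and for additivity below, the share of all genes was not taken, so the counts only describe. The additivity of the fragments (the change from VOID in both fragments, less the sum of the changes from VOID in p1-361 and in p363-549) was called for 0 members (0.213% of genes), with 1 at an unadjusted p under 0.05. For Cebpb it was -0.72 ± 0.34 (limma adjusted p = 0.342), and without the 3 arrays it was -1.29 (0.00491) and for Cebpe -0.95 (0.0448), where 10.6% of genes were called.

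The genes whose pattern over the 24 arrays was most like that of Cebpb were Rhbdf2, an inactive rhomboid protein that helps release tumour necrosis factor (Pearson r = 0.96), and a pair of probes with no gene symbol in the files (r = 0.95 each). For Cebpe they were Itgax, the integrin CD11c (0.93, above background on 14 of 24 arrays), Arhgap4, a GTPase-activating protein (0.93), and Ms4a3, a membrane protein of granulocyte and monocyte progenitors (0.91). For Spi1 they were the tetraspanin gene Tspan5 (0.89), the lysosomal membrane gene Sidt2 (0.88) and again Itgax (0.88). These correlations share arrays, groups and scaling and describe this likeness only.

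Of 25 monocyte and macrophage genes that PU.1 and C/EBP factors are known to drive, 20 were tested. Those called against VOID in any construct with all arrays were Lyz1, Lyz2, Tyrobp, Ctss and Csf2rb. Lyz1, which encodes an antibacterial lysozyme, rose in WT, D361E, p1-361 and p363-549. Lyz1 was -1.59, -1.32, -0.96 and -1.53 in p1-361, against -3.24, -3.30, -3.01 and -2.93 in VOID, a difference of 1.77 ± 0.25 (limma adjusted p = 0.000449). It was also higher than VOID in WT by 1.23, in D361E by 1.34 and in p363-549 by 1.32 (adjusted p of 0.0198, 0.00755 and 0.0122). No array of these 4 groups overlapped with VOID, as for 4.79% of genes in WT, 4.77% in D361E, 4.7% in p1-361 and 3.31% in p363-549.

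Lyz2 was above background on 0 of 4 VOID arrays and was at least 2.07-fold higher in WT, 2.62-fold in p1-361, 2.40-fold in p363-549 and 1.62-fold in both fragments (3 of 4 arrays above background in each of the last 2). It entered the test only through WT and p1-361, where it was high, so these bounds are a description. Without the 3 fragment arrays Lyz2 was not called in both fragments against VOID (limma adjusted p = 0.104). Lyz1 and Lyz2 are near-identical copies, so a probe of one can pick up the other. Tyrobp, the adaptor DAP12 of myeloid receptors, fell in p363-549 and in both fragments. Its level was 1.44, 1.03, 2.00 and 3.87 in both fragments, against 4.55, 5.00, 5.26 and 5.45 in VOID, a difference of -2.98 ± 0.45 (limma adjusted p = 0.00046). It differed from VOID by -2.07 in p363-549 (adjusted p = 0.0358). Ctss, the protease cathepsin S, was above background on 0 of 4 arrays in p363-549 and in both fragments, against 4 of 4 in VOID, and was at least 3.38-fold and at least 4.54-fold lower there. It entered the test only through VOID, where it was high, so these bounds too are a description.

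Csf2rb, the shared receptor chain for interleukin-3 and GM-CSF, was lower in both fragments by -1.14 ± 0.21 (limma adjusted p = 0.00232). So the list had 2 genes higher and 0 lower in WT, 1 and 0 in D361E, 2 and 0 in p1-361, 2 and 2 in p363-549, and 1 and 3 in both fragments, with Lyz2 and Ctss, whose entry their own difference decided, among them. Over all genes the shares called higher and lower were 0.239% and 0.246% in WT, 0.432% and 0.226% in D361E, 0.339% and 0.352% in p1-361, 0.179% and 0.412% in p363-549, and 1.85% and 2.53% in both fragments. Without the 3 arrays the list's counts in both fragments were 0 higher and 6 lower, where 9.54% of all genes were called in either direction. The median difference from VOID was 0.14 in WT, 0.21 in D361E, 0.03 in p1-361, -0.04 in p363-549 and -0.18 in both fragments, against medians over all genes of -0.04, -0.03, -0.02, 0.03 and -0.01.

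**Figure D4:**
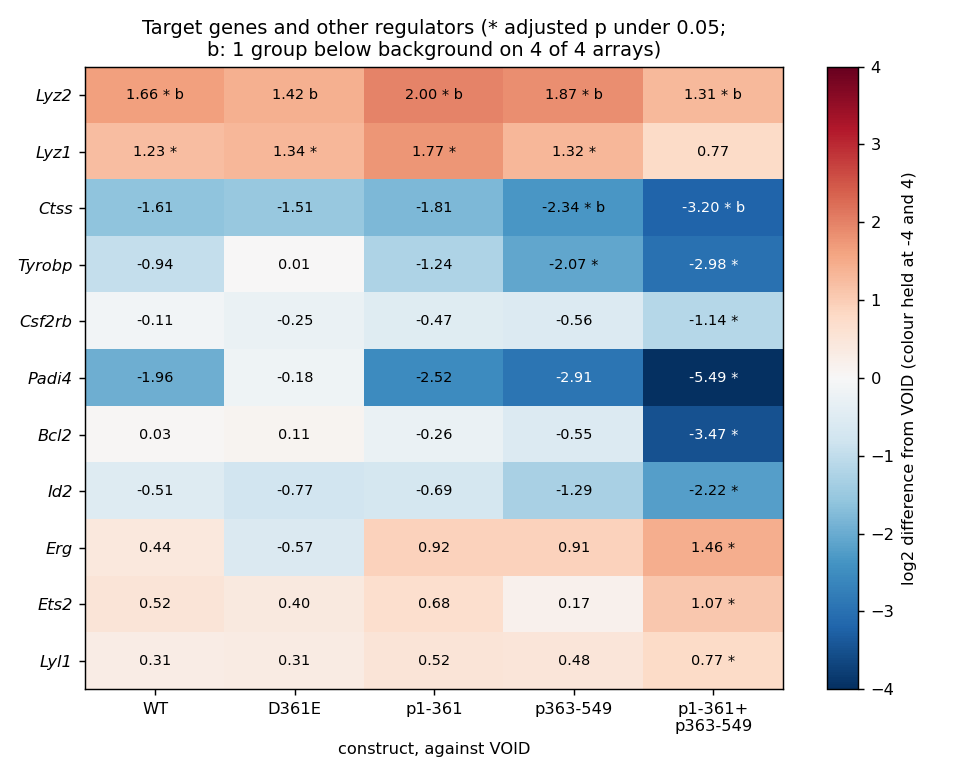
Log2 difference from VOID (colour and printed value) in each construct (columns) for the genes of 4 of the lists that passed in at least 1 of these comparisons (rows), with a star for an adjusted p under 0.05 and b where 1 of the groups was below background on 4 of 4 arrays, so that the value is not a fold. Lyz1 and Lyz2 are positive in all 5 columns, and Padi4, Bcl2, Ctss, Tyrobp and Id2 reach their lowest values in both fragments. Lyz2, Ctss and Erg entered the test only through groups where they were high.

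Genes listed for neutrophil granules, some of which Cebpe and Gfi1 are known to control, were mostly too dim, with 6 of 17 tested. In limma none passed in the 4 other constructs with all arrays. Without the 3 arrays 1 was lower in each of WT, p1-361 and p363-549, where 1.28%, 2.63% and 0.87% of all genes were called. In both fragments 1 fell, Padi4, which encodes the enzyme that citrullinates histones in neutrophils and not a granule protein. Its levels were -5.97, -6.03, -6.77 and -2.70 against 0.10, 0.11, -0.15 and 0.42 in VOID (limma adjusted p = 0.00135). Of the both-fragment arrays only replicate 4 was above background. The median of the 6 genes was -0.38 there, against -0.01 over all genes. Of 11 target genes of Irf4 and Irf8, 6 were tested and limma called none against VOID in any construct with all arrays. Without the 3 arrays 1 was higher in both fragments, where 9.54% of all genes were called. With all arrays their median was -0.27 in both fragments.

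Of 14 Myb target genes 10 were tested and limma called 0 in the other 4 constructs (0.485% to 0.691% of all genes) and 1 lower in both fragments (4.38% of all genes), or 2 lower there without the 3 arrays (9.54% of all genes). The gene called with all arrays was Bcl2, which protects cells from apoptosis, at -0.44, -0.74, -0.42 and 2.31 in both fragments, against 3.67, 3.79, 3.88 and 3.26 in VOID, a difference of -3.47 ± 0.82 (limma adjusted p = 0.0154). The p363-549 replicate 4, at -0.78, was the only other low array. The median of the Myb targets was -0.10 in both fragments.

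Among 48 other regulators of blood cells 37 were tested, and with all arrays those called against VOID were all in both fragments (4.38% of all genes, against 0.485% to 0.691% in the other constructs). Without the 3 arrays 1 was also higher in WT (1.28% of all genes called) and 2 in p1-361 (2.63%). Id2, an inhibitor of helix-loop-helix factors, was -1.14, -1.65, 0.31 and 0.80 in both fragments, against 1.68, 1.82, 1.82 and 1.87 in VOID (difference -2.22 ± 0.43, limma adjusted p = 0.00361). Ets2, of the ETS family, was higher by 1.07 ± 0.21 (adjusted p = 0.00412) and Lyl1, a helix-loop-helix factor of progenitors, by 0.77 ± 0.19 (0.022). Erg, another ETS factor, averaged -3.41 in both fragments (4 of 4 arrays above background) and -4.88 in VOID (2 of 4), and it entered the test only through both fragments, where it was high. The list so had 3 genes higher, Erg among them, and 1 lower, and 7 higher and 3 lower without the 3 arrays (9.54% of all genes called), with a median of -0.17 against -0.01 over all genes.

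Markers of other blood cells also differed, and in more groups than both fragments. With all arrays the shares of all genes called lower than VOID were 0.246% in WT, 0.226% in D361E, 0.352% in p1-361, 0.412% in p363-549 and 2.53% in both fragments. For mast cells and basophils, 4 of 7 tested markers were called lower in both fragments (1 in WT, 2 in D361E, 1 in p1-361 and 1 in p363-549), and Mcpt8, a basophil protease, entered the test only through VOID. Without the 3 arrays the counts lower were 1 in WT, 5 in D361E, 3 in p1-361 (with 1 higher), 3 in p363-549 and 5 in both fragments, where 1.28%, 1.62%, 2.63%, 0.87% and 9.54% of all genes were called. With all arrays the summed level of the 10 listed, on a linear scale in units of the 75th percentile, was 0.633 to 4.64 in both fragments, against 8.30 to 23.6 in VOID, with Kit and Ms4a2 never above background. The sum was 7.38 to 12.9 in WT, 3.04 to 4.12 in D361E, 3.35 to 10.3 in p1-361 and 0.638 to 5.69 in p363-549. With all arrays 3 of 6 tested erythroid markers were lower in WT, 1 in D361E, 2 in p1-361, 0 in p363-549 and 4 in both fragments. Those in WT and in both fragments included Hbb-bs and Hbb-bt, closely related globin genes whose probes may share signal. The sum over the 8 listed was 14.1 to 22.4 in WT, 23.0 to 51.4 in D361E, 37.6 to 47.6 in p1-361, 18.4 to 87.6 in p363-549 and 20.1 to 27.5 in both fragments, against 55.7 to 119.6 in VOID, with Alas2 never above background. The adult globin gene Hbb-bt averaged -0.61 in WT and 0.88 in both fragments, against 4.69 in VOID. Of 7 tested blood cell markers of the line 2 were lower in both fragments, Csf2rb and Csf2rb2, near-identical copies whose probes may share signal, with a sum of 98.6 to 133 against 162 to 214 in VOID.

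Of 9 listed T cell markers, Cd3d, Cd3e, Cd4 and Lck were above background on 24 of 24 arrays, and Cd8a, Cd247 and Cd2 were never above it. The summed T cell level was 3.27 to 6.14 in both fragments, against 5.57 to 8.36 in VOID, with 1 of 6 tested T cell markers lower (Cd3d, difference -1.05, limma adjusted p = 0.0114). Cd5 went the other way, 1.49 higher in both fragments than in VOID, and Cd3g differed by -1.69, and neither was called. They were above background on 17 and 12 of 24 arrays, and Cd5 entered the test only through p1-361 and both fragments, where it was high. Fibroblast and epithelial markers summed to at most 0.15 in every group. The part of these markers in the Cebpb, Cebpe and Spi1 differences was not tested.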

How the data were processed

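Total RNA from 24 samples was labelled with Cy3 and read on 1-colour arrays with 44397 spots, 43020 of them not controls. Feature Extraction 10.7.3.1 by Agilent was used by the authors, per the submitters' processing notes and the file headers. The deposited signal intensity is linear and background-subtracted by that software, per the file headers, and arrays had not been scaled to one another. The series' value table holds the same intensity (largest difference 0). Probe coordinates are in mm9, per the file headers. The scanner's yes or no marks for background, saturation and outliers were used as deposited.

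Spots marked non-uniform or population outlier (185 to 312 per array) were removed. The plan had named non-uniform spots only, so keeping the others is an alternative. Saturated spots numbered 0. A level is log2 of the intensity less that of the array's 75th percentile. A probe was kept if some group had it well above background on 4 of 4 arrays (19522 probes), and the brightest such probe represents a gene (15058 genes). On each array 49.4% to 55.5% of spots exceeded background, and the number of arrays limits the precision. Of 39429 probes, 27508 took their name through a RefSeq accession and the rest kept the name on the array.

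A model with 1 mean per group was fitted in limma 3.58.1 (R 4.3.3, statmod 1.5.0, and 1.17.8 of the data.table package), with 18 residual and 3.06 prior degrees of freedom. It gave 15 comparisons of groups, additivity and an F test. A gene was called at a Benjamini-Hochberg adjusted p below 0.05 over all genes of a comparison, 2-sided, and ± gives limma's SE unless stated. Tested on simulated data for both fragments against VOID with 15058 genes, the steps called 59% of changes of 1 and 96% of changes of 2 (log2), with 7 false calls. The simulated noise was drawn for each gene on its own, without differences between sets or shifts shared by an array. These rates may therefore not hold for the arrays at hand. "At least N-fold" is a bound for a group in which 0 of 4 arrays were above background, taken against the dimmest signal that was. The mean of the other group includes any of its arrays that were not above background.

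The 9 members and 11 gene lists were chosen with earlier results of these data known. The result of 1 marker list is not reported here. Named are all members, up to 4 called genes per list and comparison with VOID, and the 3 genes most correlated with each of 3 members. Replicates are numbered by sample order, and every run of 6 consecutive samples (a set) holds each group.

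Alternatives covered the background correction (normexp, offset 50), quantile scaling, a percentile over detected probes, no filter and a stricter one, the series' value table, means of a gene's probes or single probes, slide as a fixed or a random block, sets as a fixed block, a brightness covariate, array weights, a trended and robust prior, fits of the compared arrays alone, removal of the 3 fragment arrays, and removal of each array. Chosen after seeing the data were keeping population outliers, removing samples 13 to 18, and removing the 3 fragment arrays with sets as a fixed block.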

Additional observations from a re-analysis of the deposited data

Results flagged for a closer look

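Groups of 4 arrays were examined where a member was above background on at least 1 array (36 groups), and in 3 of them 1 array lay apart from the other 3 by more than the 95% critical value of Dixon's ratio (gap over range), which chance exceeds in about 1 group in 20. The Irf4 group was examined only because its outlying array was above background, so that the count of 3 is not to be set against this rate. Cebpe in the both-fragment replicate 4 was 4.16, against 2.63 to 2.81 in the other 3 arrays (ratio 0.881). Irf8 in the both-fragment replicate 3 was -2.89, against -5.45 to -5.11 (ratio 0.866). Irf4 in p1-361 replicate 4 was -2.93, the 1 array of 24 where it was above background, against -6.80 to -6.55 in the other 3, all below background (ratio 0.937). Both replicate 4 arrays named here are among the 3 whose overall pattern was closest to another group.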

How the results depend on the processing

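Of 870 recomputed values for 28 results, 737 kept their count of members or their side of the threshold. Only the differences of single members have a direction, which counts and F tests lack, and 0 of these differences reversed. The number of members that differed among the groups was 1 (Cebpb). It was 2 after quantile scaling, with a percentile over detected probes, with set as a fixed block and with a trended and robust prior; it was 3 with array weights, without the 3 fragment arrays, and without them with set as a fixed block; it was 0 with no filter, with brightness as a covariate and without the set 13 to 18, and 0 to 3 without single arrays. For both fragments against VOID the 1 call became 0 with no filter, with brightness, without the set 13 to 18 and with only the arrays compared, became 3 with array weights, without the 3 arrays, and without them with set as a fixed block, and was 0 to 3 without single arrays. Against WT the 1 call became 0 after normexp correction, with no filter, with slide as a fixed block, with brightness, without the set 13 to 18 and with only the arrays compared; it was 4 with array weights, 2 without the 3 arrays, 3 without them with set as a fixed block, and 0 to 1 without single arrays. The 0 calls of D361E became 2 with array weights, 1 without the 3 arrays and 1 without them with set as a fixed block against VOID, and 3, 1 and 1 against WT. The 0 calls of additivity became 2 with array weights, 2 without the 3 arrays and 3 without them with set as a fixed block. WT, p1-361 and p363-549 against VOID, and p1-361 and p363-549 against WT, had 0 members in every setting run. The share of all genes called moved with the setting too. For the F test it was 2.84% with all arrays, unblocked, 9.86% without the 3 arrays and 11.1% with set as a fixed block. Without the 3 arrays it was 9.54% for both fragments against VOID, 5.55% against WT and 10.6% for additivity. For D361E it was then 1.62% against VOID and 0.545% against WT. Counts in settings without a share given are not results about the members.

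For Cebpb in both fragments against VOID, the call ended without the both-fragment replicates 1 (adjusted p = 0.113) or 2 (0.129) and without VOID replicates 2 (0.0597) or 3 (0.0876), in limma. Against WT it ended without any 1 of the 8 arrays except the both-fragment replicate 4, with adjusted p up to 0.214. Against D361E it held without each of the 8 arrays and ended with brightness as a covariate (0.0622) and with only the arrays compared (0.0563). The call of Cebpe in both fragments against D361E ended without the set 13 to 18 (0.0705) and with only the arrays compared (0.107). The causes were not tested. The sample titles give no replicate numbers to pair. With a fixed block for each run of consecutive samples, which holds 1 array of every group, Cebpb in both fragments against VOID kept an adjusted p of 0.012. Signal over background kept Cebpa, Gfi1, Irf4 and Irf8 out of the test.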
